A study of Homo sapiens with 21 samples.

Results

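The genes that depend on the endogenous EWS/FLI fusion of A673 cells were sorted by function, using 6 of the 21 RNA-seq libraries of the series. Members were taken by their labels, 3 iLuc libraries from cells that kept the fusion and 3 iEF libraries from cells depleted of it. A673 is an established Ewing sarcoma cell line. iLuc cells carried a control shRNA against luciferase, and iEF cells an shRNA against the 3′ UTR of the EWS/FLI transcript. Cells of both groups also carried the empty cDNA vector, so the labels differ by the shRNA alone. The shRNA retrovirus was given on day 1 and selected with 2 µg/ml puromycin, the empty vector followed on day 5, and selection with puromycin and 400 µg/ml hygromycin ran to day 16. As a second comparison with no library in common, iEF cells given a wild-type EWS/FLI cDNA (WT-EF, 3 libraries) were set against iEF cells given a control cDNA that lacks the EWS domain (del22, 3 libraries).

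The comparison rests on 1 shRNA in each arm and on 1 cell line. Per the study's text the replicates come from 3 separate rounds of knockdown and rescue in this line. The replicate number is a block in the model, so p-values measure the spread left after differences shared by a round. That spread was estimated over all 21 libraries. In bulk RNA, fewer cells that express a gene and less RNA per cell cannot be told apart.

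EWS/FLI joins the disordered amino-terminal part of EWS to the ETS-type DNA-binding domain of FLI1. It binds GGAA repeats, where it recruits chromatin remodellers and builds enhancers, and single ETS sites, and it is known both to activate and to repress genes. Ewing sarcoma cells are known for a mixture of neural and mesenchymal features, and the lists used here cover synaptic, endocrine, developmental, matrix, contractile, growth and immune functions.

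Library totals were 33.3 to 44.8 M counts in iEF and 36.7 to 41.2 M counts in iLuc. Levels are given as CPM, the count divided by the TMM-adjusted library size in M counts. A gene was called when the quasi-likelihood test of edgeR gave a Benjamini-Hochberg adjusted p below 0.05 over all 30549 genes tested, and all adjusted p values below come from that test. Errors of a log2 fold change are approximate SE, the absolute change divided by the square root of the test's F statistic. They were derived from the test and not fitted by the model. Of the genes tested 41.1% were called, 18.7% as higher in iLuc (activated) and 22.4% as lower in iLuc (repressed), and among protein-coding genes alone the shares were 24.7% and 30.0%. Activated and repressed name a direction only. No binding data were used, so direct and indirect effects of the fusion cannot be told apart. In WT-EF over del22 10.7% were called higher and 14.5% lower. The split between activated and repressed calls depended on the scaling: activated genes were 45.6% of the calls with TMM factors, 56.3% with library totals alone, which moved the median log2 fold change of all genes from 0.01 to 0.17, and 59.0% with limma on ComBat-adjusted values. The 63 function lists held 2941 genes, of which 2699 passed the low-count filter and 60 stood in more than one list. Each list below is read against these background shares.

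The targeted gene was examined first. FLI1 (chromosome 11, 128556430 to 128683162, GRCh37) stood at 20.8, 20.02 and 21.1 CPM in iEF and 61.3, 60.6 and 89.05 CPM in iLuc. All 3 iLuc libraries lay above every iEF library (log2 fold change 1.75 ± 0.14, edgeR adjusted p = 1.33e-09), so the labels and the target gene agree in direction. FLI1 does not check WT-EF against del22, because both cDNAs carry FLI1 sequence.

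The list of genes long described as activated by EWS/FLI moved mostly one way. Of 31 such genes 28 were activated, 1 was repressed and 2 were not called, and the median log2 fold change was 2.68. All 9 genes described as repressed by the fusion were repressed, with a median of -2.26. These lists come from general knowledge of the fusion, part of it gained in this cell line, so their direction is not independent evidence. The same call was made for 25 of the 28 and 5 of the 9 in WT-EF over del22.

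Within the activated list GLI1, a transcription factor of the Hedgehog pathway, stood at 0.233, 0.125 and 0.378 CPM in iEF and 9.43, 12.7 and 6.61 CPM in iLuc. The groups did not overlap (log2 fold change 5.21 ± 0.37, edgeR adjusted p = 3.45e-10). LIPI, a membrane-bound phospholipase, stood at 5.76, 8.10 and 7.70 CPM in iEF and 143, 260.3 and 186 CPM in iLuc, again without overlap (log2 fold change 4.75 ± 0.21, edgeR adjusted p = 4.33e-13). PPP1R1A, an inhibitor of protein phosphatase 1, stood at 0.513, 1.16 and 0.513 CPM in iEF and 55.8, 30.5 and 36.8 CPM in iLuc. Every iLuc library was above every iEF library (log2 fold change 5.90 ± 0.38, edgeR adjusted p = 8.02e-11). TERT, the catalytic subunit of telomerase, stood at 0.0467, 0.125 and 0.216 CPM in iEF and 2.67, 2.41 and 8.57 CPM in iLuc. Its iEF levels are near the level of single reads, and it was called as well (log2 fold change 5.07 ± 0.48, edgeR adjusted p = 2.71e-08). CCND1, the D-type cyclin of G1, had the smallest change of the 28, and its libraries overlapped at 1889, 1312 and 1603 CPM in iEF and 1929, 2133 and 1825 CPM in iLuc (log2 fold change 0.30 ± 0.11, edgeR adjusted p = 0.0389). UPP1, a uridine phosphorylase, was the member that went the other way, at 20.3, 17.02 and 29.6 CPM in iEF and 3.16, 1.90 and 1.75 CPM in iLuc (log2 fold change -3.31 ± 0.21, edgeR adjusted p = 9.74e-11).

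Among the repressed genes IGFBP3, a secreted binding protein that holds insulin-like growth factors, stood at 3771, 5873 and 3974 CPM in iEF and 17.5, 15.9 and 17.3 CPM in iLuc. The groups were far apart (log2 fold change -8.08 ± 0.31, edgeR adjusted p = 1.10e-13). TGFBR2, the type II TGF-beta receptor, stood at 181, 155 and 220.2 CPM in iEF and 49.9, 43.6 and 24.9 CPM in iLuc, with no overlap (log2 fold change -2.26 ± 0.19, edgeR adjusted p = 3.65e-09). LOX, an enzyme that crosslinks collagen and elastin, stood at 319, 299 and 422 CPM in iEF and 6.37, 3.98 and 3.96 CPM in iLuc (log2 fold change -6.20 ± 0.32, edgeR adjusted p = 4.44e-12). CDKN1A, the inhibitor p21 of cyclin-dependent kinases, stood at 148, 117 and 211 CPM in iEF and 14.9, 17.8 and 12.6 CPM in iLuc, with all iLuc libraries below all iEF libraries (log2 fold change -3.40 ± 0.23, edgeR adjusted p = 1.82e-10).

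**Figure D1:**
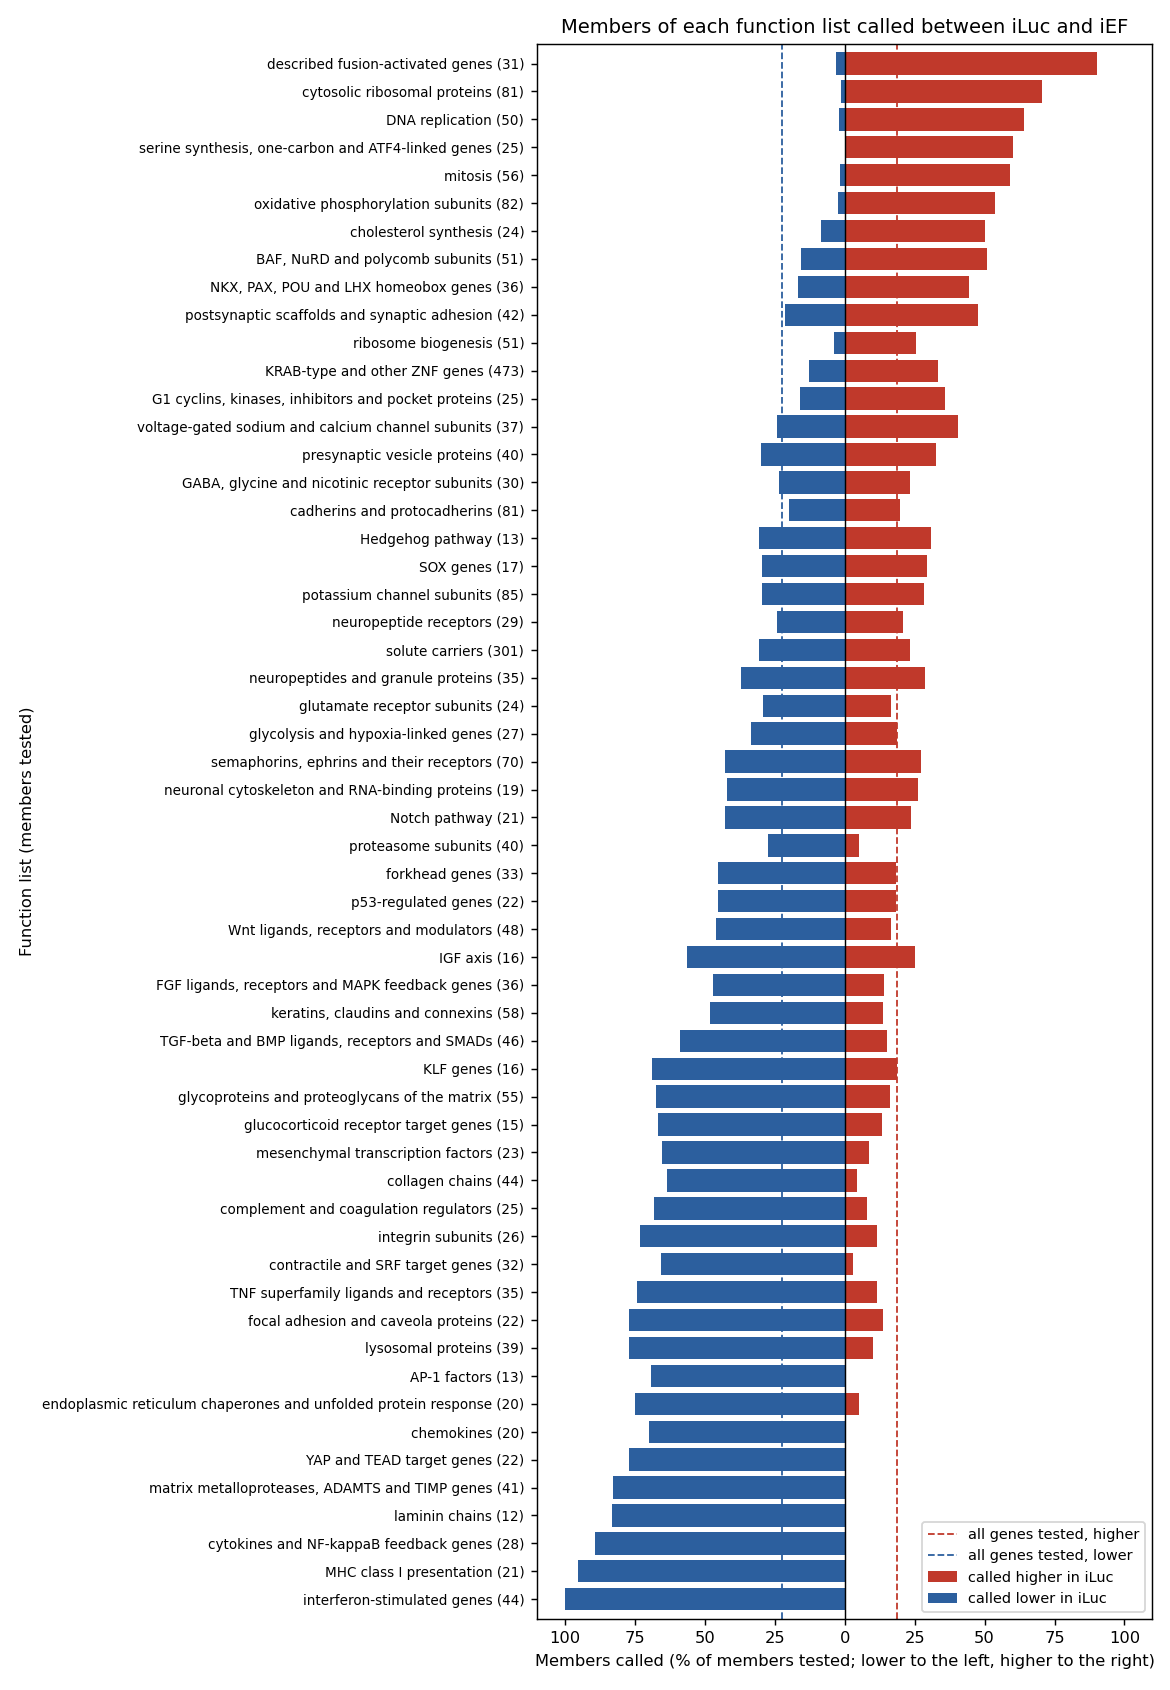
Share of the tested members of each function list called higher (to the right) or lower (to the left) in iLuc than in iEF, for the 56 lists with at least 10 members tested. Dashed lines mark the shares among all genes tested, 18.7% higher and 22.4% lower. The interferon-stimulated genes stand at the lower extreme with 44 of 44 members repressed, and ribosomal protein and replication genes stand near the upper end.

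Neural and endocrine genes did not move together, and specific neuropeptide, synaptic and channel genes were activated beside others that were repressed. Of 35 neuropeptide and granule proteins tested (43 listed), 10 were activated and 13 repressed. Postsynaptic scaffold and synaptic adhesion genes gave 20 activated and 9 repressed of 42 (44 listed), with a median log2 fold change of 0.40, or 0.31 with genes at the detection floor placed at their bound. Voltage-gated sodium and calcium channel subunits gave 15 activated and 9 repressed of 37 (40 listed), and 16 and 5 without iLuc replicate 3. Presynaptic vesicle proteins were split 13 to 12 of 40, potassium channel subunits 24 to 25 of 85, neuropeptide receptors 6 to 7 of 29, GABA, glycine and nicotinic receptor subunits 7 to 7 of 30, and glutamate receptor subunits 4 to 7 of 24. The potassium channel shares, 28.2% activated and 29.4% repressed, were near the 24.7% and 30.0% of protein-coding genes. Neuropeptide receptors gave 20.7% and 24.1%, and the GABA, glycine and nicotinic list 23.3% each way. These shares lie between those of all genes tested, 18.7% and 22.4%, and those of protein-coding genes. With library totals alone the GABA, glycine and nicotinic list gave 11 activated, and with limma on ComBat-adjusted values repressed calls numbered 4 there, 15 for potassium channels and 4 for glutamate receptors.

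Of the peptides, GRP, the gastrin-releasing peptide, stood at 2.78, 2.16 and 1.59 CPM in iEF and 70.2, 75.1 and 52.9 CPM in iLuc. The lowest iLuc library was above the highest iEF library (log2 fold change 4.93 ± 0.24, edgeR adjusted p = 1.77e-12). PCSK2, the convertase that cuts prohormones into active peptides, stood at 5.06, 6.91 and 8.16 CPM in iEF and 88.9, 135 and 141 CPM in iLuc (log2 fold change 4.17 ± 0.18, edgeR adjusted p = 3.87e-13). CALCB, which encodes a calcitonin gene-related peptide, stood at 1.96, 1.09 and 1.86 CPM in iEF and 17.1, 21.2 and 13.9 CPM in iLuc. It too was separated in every library (log2 fold change 3.39 ± 0.24, edgeR adjusted p = 4.13e-10). NPY, a widespread neuropeptide, stood at 1.42, 0.845 and 1 CPM in iEF and 9.94, 11.8 and 8.67 CPM in iLuc (log2 fold change 3.21 ± 0.34, edgeR adjusted p = 1.56e-07). Chromogranins, the packing proteins of secretory granules, went in opposite directions. CHGA stood at 0.7, 0.407 and 1 CPM in iEF and 2.36, 9.19 and 6.51 CPM in iLuc (log2 fold change 3.03 ± 0.36, edgeR adjusted p = 6.16e-07), and CHGB at 23.2, 19.3 and 33.9 CPM in iEF and 1.36, 1.35 and 1.10 CPM in iLuc (log2 fold change -4.34 ± 0.26, edgeR adjusted p = 3.43e-11). In WT-EF over del22 the log2 fold change of CHGA was 3.23 and that of CHGB -0.14, of which only the first was called. GAL, the neuropeptide galanin, was repressed, at 10.1, 6.41 and 15.7 CPM in iEF and 0.334, 0.376 and 0.651 CPM in iLuc (log2 fold change -4.56 ± 0.43, edgeR adjusted p = 2.71e-08). STC1, a secreted glycoprotein hormone, was repressed too (log2 fold change -4.28 ± 0.26, edgeR adjusted p = 3.47e-11).

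Peptide receptors also held genes of both directions, at shares near the background. NPY1R, a receptor for NPY, stood at 7.75, 6.76 and 12.3 CPM in iEF and 75.2, 71.7 and 126 CPM in iLuc (log2 fold change 3.35 ± 0.25, edgeR adjusted p = 7.49e-10). NPY5R, which lies beside it on chromosome 4, stood at 0.56, 0.813 and 0.594 CPM in iEF and 17.4, 15.3 and 11.6 CPM in iLuc, with no overlap (log2 fold change 4.50 ± 0.25, edgeR adjusted p = 1.37e-11). The exons of these neighbours share 528 bases on opposite strands. GRPR, the receptor of the activated peptide GRP, moved the other way, at 15.2, 8.23 and 10.8 CPM in iEF and 0.283, 0.199 and 0.301 CPM in iLuc (log2 fold change -5.42 ± 0.35, edgeR adjusted p = 8.74e-11). The ligand GRP was thus high where its receptor was low, and NPY and its receptors were high together.

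At the synapse DLG2, a scaffold of the postsynaptic density, stood at 24.996, 34.5 and 24.3 CPM in iEF and 726, 735 and 357 CPM in iLuc. The groups were separated although iLuc replicate 3 was below the other iLuc libraries (log2 fold change 4.42 ± 0.21, edgeR adjusted p = 1.49e-12). Its partner DLGAP1 stood at 9.66, 14.2 and 10.9 CPM in iEF and 189.9, 171 and 119 CPM in iLuc (log2 fold change 3.79 ± 0.20, edgeR adjusted p = 4.58e-12), and SHANK1, a further scaffold of that density, at 1.42, 1.25 and 1.16 CPM in iEF and 18.6, 13.9 and 16.8 CPM in iLuc (log2 fold change 3.68 ± 0.26, edgeR adjusted p = 3.03e-10). NRXN2, a neurexin of presynaptic adhesion, was repressed at 2.96, 9.04 and 5.38 CPM in iEF and 1.34, 1.72 and 0.651 CPM in iLuc (log2 fold change -2.18 ± 0.30, edgeR adjusted p = 3.98e-06). It was called in the opposite direction in WT-EF over del22, with a log2 fold change of 0.89. Among the vesicle proteins RIMS3, a small active-zone protein, was activated (log2 fold change 3.53 ± 0.40, edgeR adjusted p = 3.17e-07) while STX1A, the syntaxin of synaptic release, was repressed (log2 fold change -2.74 ± 0.21, edgeR adjusted p = 1.44e-09). Of the common presynaptic markers SYN1, a synapsin whose exons overlap another gene over 928 of 3733 bases, was activated (log2 fold change 0.99 ± 0.29, edgeR adjusted p = 0.0085). SYP, synaptophysin, was not called at 0.75 but was called higher in WT-EF over del22, at 1.42, and SNAP25 was called in neither, at 0.11 and 0.68. GRIK2, a kainate-type glutamate receptor subunit, stood at 24.6, 23.2 and 24.97 CPM in iEF and 222, 254 and 202 CPM in iLuc (log2 fold change 3.21 ± 0.15, edgeR adjusted p = 7.38e-13).

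Ion channels moved in both directions. Among the activated ones, CACNB2, an auxiliary subunit of voltage-gated calcium channels, stood at 2.57, 3.35 and 2.19 CPM in iEF and 36.99, 39.7 and 37.01 CPM in iLuc (log2 fold change 3.83 ± 0.18, edgeR adjusted p = 1.49e-12). CACNA1H, a pore subunit of low-voltage-activated calcium channels, stood at 1.70, 3.22 and 2.08 CPM in iEF and 26.4, 49.1 and 32.998 CPM in iLuc (log2 fold change 3.95 ± 0.20, edgeR adjusted p = 2.65e-12), and KCNA2, a delayed-rectifier potassium channel, at 1.84, 3.00 and 1.89 CPM in iEF and 25.5, 29.7 and 33.9 CPM in iLuc (log2 fold change 3.76 ± 0.21, edgeR adjusted p = 1.20e-11). These 3 showed no overlap between the groups. Calcium-activated potassium channels were found on both sides. KCNN1 stood at 3.92, 2.41 and 3.46 CPM in iEF and 19.9, 20.2 and 36.4 CPM in iLuc (log2 fold change 2.92 ± 0.25, edgeR adjusted p = 6.02e-09). KCNN4 stood at 14.7, 11.98 and 11.4 CPM in iEF and 0.0771, 0.0663 and 0.1 CPM in iLuc (log2 fold change -7.24 ± 0.32, edgeR adjusted p = 4.27e-13), and KCNMA1 at 119, 108 and 159 CPM in iEF and 1.93, 1.99 and 2.88 CPM in iLuc (log2 fold change -5.83 ± 0.29, edgeR adjusted p = 1.83e-12), both with every iLuc library below every iEF library.

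Cytoskeletal and guidance genes of neurons went both ways. Of 19 neuronal cytoskeleton and RNA-binding genes 5 were activated and 8 repressed, with a median of 0.07 and 6 of each without iLuc replicate 3, and of 70 semaphorins, ephrins and their receptors 19 and 30. TUBB3, a neuronal tubulin whose exons overlap a neighbouring gene over 1584 of 7421 bases, stood at 20.5, 9.32 and 15.97 CPM in iEF and 4.03, 2.85 and 4.54 CPM in iLuc (log2 fold change -1.99 ± 0.23, edgeR adjusted p = 3.38e-07), and GAP43, a growth-cone protein, at 36.5, 28.1 and 20.2 CPM in iEF and 19.5, 5.75 and 8.84 CPM in iLuc (log2 fold change -1.35 ± 0.25, edgeR adjusted p = 0.000195). L1CAM, an adhesion molecule of axons, stood at 63.7, 82.1 and 46.2 CPM in iEF and 1.34, 0.796 and 0.902 CPM in iLuc, with a wide gap between the groups (log2 fold change -5.98 ± 0.24, edgeR adjusted p = 1.40e-13). MAPT, which encodes the microtubule protein tau, and ENO2, neuron-specific enolase, went up (log2 fold change 2.14 ± 0.26, edgeR adjusted p = 1.06e-06 for MAPT and log2 fold change 1.43 ± 0.17, edgeR adjusted p = 6.38e-07 for ENO2). The netrin receptor gene DCC stood at 19.3, 19.99 and 14.4 CPM in iEF and 127, 153 and 88.4 CPM in iLuc (log2 fold change 2.76 ± 0.13, edgeR adjusted p = 1.52e-12), while the plexins PLXNA2 and PLXNA4, receptors for semaphorins, were repressed, with log2 fold changes of -7.50 and -6.82. SEMA3A, a secreted repellent of axons, stood at 340.2, 461 and 369 CPM in iEF and 89.9, 110.5 and 39.4 CPM in iLuc (log2 fold change -2.33 ± 0.22, edgeR adjusted p = 2.26e-08).

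**Figure D2:**
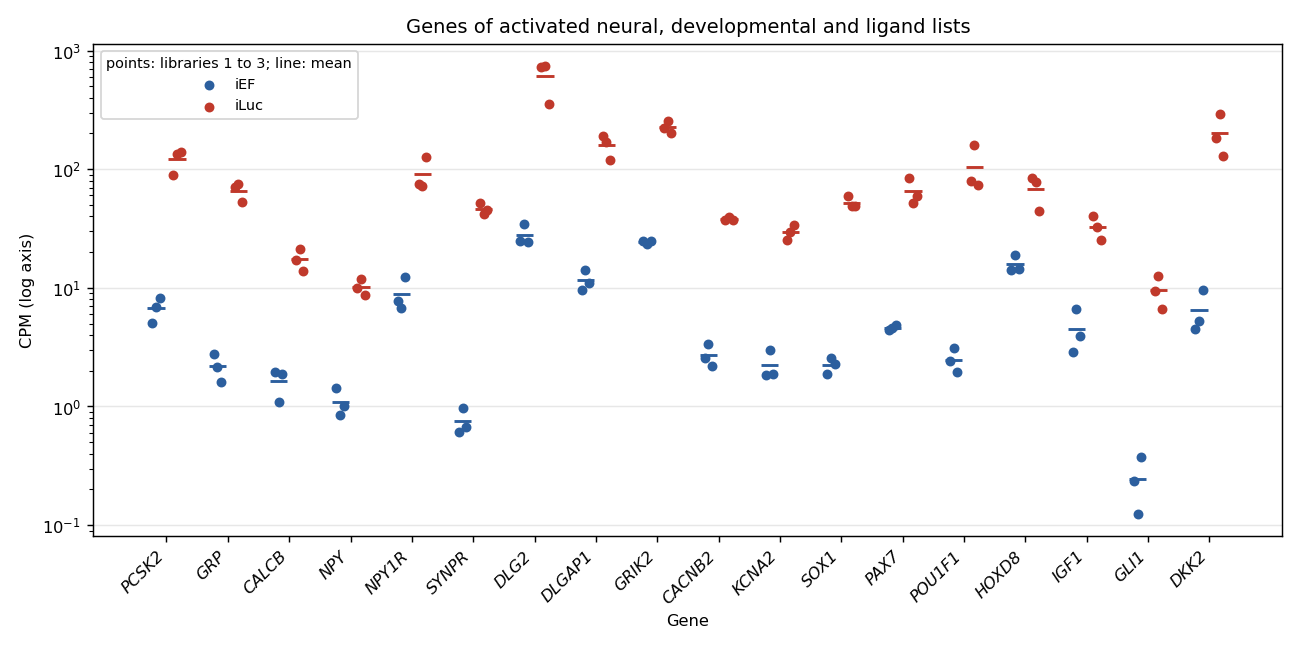
Level in CPM on a log axis of 18 activated genes in the 3 iEF and 3 iLuc libraries. Points are libraries and lines are means of 3. The genes were picked for display after their values were seen. In each of them every iLuc library lies above every iEF library.

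Among developmental transcription factors the HOXD genes, which sit together on chromosome 2 and pattern limbs and the posterior body axis, were activated in 7 of 9, with 1 repressed and a median log2 fold change of 1.14. The medians were 1.34, 1.05 and 1.22 in the pairs of libraries numbered 1, 2 and 3. All 8 of these calls recurred in the same direction in WT-EF over del22. The activated genes were HOXD3, HOXD4, HOXD8, HOXD9, HOXD10, HOXD11 and HOXD13, and the repressed gene was HOXD1. HOXD8 (chromosome 2, 176994422 to 176997423, GRCh37) stood at 14.003, 19.1 and 14.5 CPM in iEF and 83.9, 77.97 and 44.05 CPM in iLuc (log2 fold change 2.10 ± 0.18, edgeR adjusted p = 8.37e-09). HOXD13, at the 5′ end of the cluster (176957449 to 176960672), stood at 16.2, 18.4 and 13.7 CPM in iEF and 41.1, 32.8 and 32.05 CPM in iLuc (log2 fold change 1.14 ± 0.12, edgeR adjusted p = 8.87e-08). In both genes every iLuc library lay above every iEF library, although HOXD8 shares 642 of 2629 exon bases with antisense transcripts. Counts in the other HOX clusters were lower. HOXB genes gave 1 activated and 3 repressed of 9 tested (10 listed), HOXC genes 4 and 2 of 9 (2 activated without iEF replicate 1 and 1 without iEF replicate 3), and of the 11 HOXA genes 1 was expressed enough to be tested and it was not called.

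Homeobox genes of the NKX, PAX, POU and LHX families gave 16 activated and 6 repressed of 36 tested (49 listed), with 3 repressed by limma on ComBat-adjusted values. POU1F1, the pituitary factor PIT-1, stood at 2.40, 3.10 and 1.95 CPM in iEF and 78.9, 159.9 and 73.8 CPM in iLuc. The lowest iLuc library was far above the highest iEF library (log2 fold change 5.35 ± 0.38, edgeR adjusted p = 4.54e-10). PAX7, a factor of neural crest and muscle stem cells, stood at 4.41, 4.60 and 4.86 CPM in iEF and 83.6, 51.6 and 59.9 CPM in iLuc (log2 fold change 3.80 ± 0.28, edgeR adjusted p = 7.26e-10). NKX2-2, a neural tube factor, stood at 0.747, 1.38 and 0.811 CPM in iEF and 8.06, 11.01 and 7.87 CPM in iLuc (log2 fold change 3.22 ± 0.27, edgeR adjusted p = 4.09e-09). Its exons share 933 of 2123 bases with antisense transcripts, so its counts are uncertain. POU2F2, a lymphoid factor, went the other way, at 20.6, 17.3 and 25.8 CPM in iEF and 0.36, 0.641 and 0.727 CPM in iLuc (log2 fold change -5.20 ± 0.45, edgeR adjusted p = 7.09e-09).

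SOX genes were split 5 to 5 of 17, or 29.4% each way, beside 24.7% activated and 30.0% repressed among protein-coding genes. SOX1, SOX2, SOX4, SOX6 and SOX12 were activated and SOX5, SOX9, SOX11, SOX13 and SOX17 repressed. SOX1, an early neural plate factor, stood at 1.89, 2.57 and 2.27 CPM in iEF and 59.3, 48.5 and 48.6 CPM in iLuc, with a wide gap between the groups (log2 fold change 4.59 ± 0.27, edgeR adjusted p = 2.11e-11). SOX2, a factor of neural and pluripotent stem cells, stood at 45.4, 58.8 and 45.02 CPM in iEF and 103, 123 and 75.04 CPM in iLuc (log2 fold change 1.01 ± 0.17, edgeR adjusted p = 6.08e-05). SOX9, the main factor of cartilage and of many stem cell niches, stood at 132, 116 and 119 CPM in iEF and 37.9, 31.9 and 18.99 CPM in iLuc (log2 fold change -2.05 ± 0.19, edgeR adjusted p = 2.02e-08). KRAB-type and other ZNF genes, a large family of which many silence transposable elements, gave 158 activated and 60 repressed of 473 tested (500 listed). Their median log2 fold change was 0.19 and 38 of the 158 reached 2-fold, and with library totals alone the calls were 214 and 39. ZNF704 stood at 74.9, 119 and 64.6 CPM in iEF and 544, 515 and 390.3 CPM in iLuc (log2 fold change 2.51 ± 0.16, edgeR adjusted p = 8.72e-11).

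AP-1, KLF, forkhead and mesenchymal factors held more repressed than activated genes. AP-1 factors gave 9 repressed and 0 activated of 13 (9 and 2 without iLuc replicate 3), KLF genes 11 and 3 of 16, forkhead genes 15 and 6 of 33 tested (45 listed), and mesenchymal transcription factors 15 and 2 of 23 (14 and 4 with library totals alone). FOSL1, an AP-1 subunit, stood at 191, 158 and 250.4 CPM in iEF and 10.1, 6.92 and 12.7 CPM in iLuc (log2 fold change -4.34 ± 0.18, edgeR adjusted p = 3.02e-13), and FOSL2 at 225, 525 and 341 CPM in iEF and 22.96, 22.1 and 16.8 CPM in iLuc (log2 fold change -4.13 ± 0.25, edgeR adjusted p = 2.89e-11). JUN overlapped between the groups and was called with a smaller change (log2 fold change -0.86 ± 0.17, edgeR adjusted p = 0.000332). RUNX1, a factor of blood and mesenchymal cells, stood at 40.1, 38.3 and 68.5 CPM in iEF and 0.205, 0.177 and 0.15 CPM in iLuc (log2 fold change -8.06 ± 0.38, edgeR adjusted p = 1.05e-12). PRRX1, a mesenchymal homeobox factor, stood at 238, 272 and 201 CPM in iEF and 15.8, 10.1 and 7.89 CPM in iLuc (log2 fold change -4.42 ± 0.21, edgeR adjusted p = 1.05e-12). SNAI2, a factor of epithelial to mesenchymal transition, stood at 31.4, 31.6 and 59.3 CPM in iEF and 3.83, 2.45 and 1.30 CPM in iLuc, with no overlap (log2 fold change -4.06 ± 0.36, edgeR adjusted p = 9.76e-09). TWIST1, from the same group of regulators, was activated instead (log2 fold change 0.71 ± 0.17, edgeR adjusted p = 0.002).

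Growth genes were higher in cells that kept the fusion, by small amounts. Of 50 DNA replication genes 32 were activated and 1 repressed, of 56 mitosis genes 33 and 1, of 81 cytosolic ribosomal protein genes 57 and 1, and of 82 oxidative phosphorylation subunits 44 and 2. The median log2 fold changes were 0.55, 0.46, 0.38 and 0.37 in that order, and 1, 2, 0 and 2 members were activated by 2-fold or more. The counts of the replication and mitosis lists moved with single libraries. Without iLuc replicate 3 the replication calls fell to 20 activated and 5 repressed, and without iEF replicate 3 the mitosis calls fell to 16 and 1. The medians of replication genes were 0.16, 0.34 and 1.09 in the 3 numbered pairs of libraries, whereas those of ribosomal proteins were 0.40, 0.30 and 0.40. With library totals alone 69 ribosomal protein genes and 61 oxidative phosphorylation genes were activated. In WT-EF over del22 the same direction was called for 23 of the 32 replication genes, 13 of the 33 mitosis genes, 12 of the 57 ribosomal protein genes and 9 of the 44 oxidative phosphorylation genes.

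MCM6, a subunit of the replicative helicase, stood at 73.8, 61.7 and 55.8 CPM in iEF and 107, 99.5 and 154 CPM in iLuc (log2 fold change 0.93 ± 0.15, edgeR adjusted p = 4.80e-05). PRIM1, the primase that starts each new strand, stood at 27.5, 18.1 and 16.2 CPM in iEF and 46.9, 49.4 and 51.4 CPM in iLuc (log2 fold change 1.28 ± 0.15, edgeR adjusted p = 6.16e-07). PCNA, the sliding clamp, overlapped between the groups at 223, 155 and 171 CPM in iEF and 202, 199 and 469 CPM in iLuc, with iLuc replicate 3 the highest (log2 fold change 0.66 ± 0.24, edgeR adjusted p = 0.0335). MYBL2, a factor of late cell cycle genes, stood at 78.5, 51.8 and 50.4 CPM in iEF and 137, 91.2 and 181 CPM in iLuc (log2 fold change 1.16 ± 0.18, edgeR adjusted p = 1.92e-05), and the proliferation marker MKI67 was not called (log2 fold change 0.37 ± 0.21, edgeR adjusted p = 0.166). The repressed gene of the mitosis list was ANLN, which organizes the cleavage furrow, with overlapping libraries at 523, 464 and 343 CPM in iEF and 251, 231 and 361 CPM in iLuc (log2 fold change -0.66 ± 0.16, edgeR adjusted p = 0.00231). NPM1, a nucleolar chaperone, stood at 1064, 904 and 1089 CPM in iEF and 1675, 1719 and 2303 CPM in iLuc (log2 fold change 0.89 ± 0.11, edgeR adjusted p = 9.11e-07). Among the respiratory chain genes COX7C, a subunit of complex IV, stood at 75.2, 78.9 and 62.4 CPM in iEF and 183, 161 and 170.0 CPM in iLuc, with no overlap (log2 fold change 1.25 ± 0.10, edgeR adjusted p = 4.14e-09). RPL31, a protein of the large ribosomal subunit, stood at 533, 596 and 495 CPM in iEF and 944, 1113 and 912 CPM in iLuc (log2 fold change 0.87 ± 0.13, edgeR adjusted p = 8.17e-06). Ribosomal protein genes have many processed pseudogenes that can share their reads, so single values are uncertain.

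Other growth lists were mixed. Ribosome biogenesis gave 13 activated and 2 repressed of 51, but 6 and 6 without iLuc replicate 3, 7 and 1 without iEF replicate 3 and 24 and 0 with library totals. G1 regulators gave 9 and 4 of 25, and 7 and 8 without iLuc replicate 3. In this list CDK6, a kinase of G1, stood at 255, 264 and 306 CPM in iEF and 67.6, 67.9 and 32.7 CPM in iLuc (log2 fold change -2.33 ± 0.22, edgeR adjusted p = 3.47e-08), and CDKN1B, the inhibitor p27, at 30.6, 31.1 and 27.8 CPM in iEF and 68.1, 75.1 and 40.8 CPM in iLuc (log2 fold change 1.02 ± 0.17, edgeR adjusted p = 4.70e-05). The inhibitors p21 and p27 thus moved in opposite directions. Glycolysis and hypoxia-linked genes gave 5 activated and 9 repressed of 27, with 3 activated without iEF replicate 2 or iLuc replicate 1 and 8 with library totals alone, and PKM, the pyruvate kinase gene, was lower in iLuc at 3497, 2779 and 2845 CPM in iEF and 1587, 1036 and 1469 CPM in iLuc (log2 fold change -1.16 ± 0.12, edgeR adjusted p = 1.18e-07). BAF, NuRD and polycomb subunits gave 26 activated and 8 repressed of 51, and 31 and 4 with library totals alone. BCL11B, a zinc finger subunit of the BAF remodeller, stood at 27.3, 14.4 and 33.5 CPM in iEF and 146, 181 and 154 CPM in iLuc (log2 fold change 2.68 ± 0.21, edgeR adjusted p = 2.24e-09), and EZH2, the polycomb methyltransferase, at 124, 95.4 and 105 CPM in iEF and 185, 166 and 213 CPM in iLuc (log2 fold change 0.80 ± 0.12, edgeR adjusted p = 2.31e-05).

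Proteasome subunits gave 2 activated and 11 repressed of 40, with 4 and 9 without iLuc replicate 2 and 6 and 8 with library totals alone, where the median of -0.05 turned to 0.11. Some of the repressed members belong to the immunoproteasome, the form induced by interferon. PSMB9 stood at 15.3, 29.6 and 11.8 CPM in iEF and 3.18, 2.90 and 1.58 CPM in iLuc (log2 fold change -2.88 ± 0.31, edgeR adjusted p = 1.64e-07), PSMB8 at 66.6, 106 and 59.01 CPM in iEF and 20.7, 17.04 and 15.3 CPM in iLuc (log2 fold change -2.11 ± 0.22, edgeR adjusted p = 1.04e-07) and PSMB10 at 4.81, 8.23 and 5.27 CPM in iEF and 0.822, 0.862 and 0.802 CPM in iLuc (log2 fold change -2.86 ± 0.27, edgeR adjusted p = 2.08e-08). PSMB5, whose place PSMB8 takes in the immunoproteasome, was activated (log2 fold change 0.43 ± 0.09, edgeR adjusted p = 0.000833). Exons of PSMB10 overlap a neighbouring gene over 640 of 1626 bases, so its counts are uncertain.

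Serine synthesis, one-carbon and ATF4-linked genes differed in the iLuc libraries themselves. Of 25 genes 15 were activated and 0 repressed, with 20 activated without iLuc replicate 3, 9 without iLuc replicate 1, and 11 activated and 3 repressed without iEF replicate 2. The list medians were 1.29 and 1.29 in the pairs numbered 1 and 2 and -0.51 in the pair numbered 3. ASNS, asparagine synthetase, stood at 57.95, 81.6 and 145 CPM in iEF and 393, 464 and 46.1 CPM in iLuc, so iLuc replicate 3 was below every iEF library (log2 fold change 1.74 ± 0.50, edgeR adjusted p = 0.00818). Its exons overlap another gene over 2415 of 4896 bases. TRIB3, a pseudokinase induced by ATF4, stood at 20.7, 10.6 and 41.9 CPM in iEF and 178, 179 and 7.52 CPM in iLuc, with iLuc replicate 3 again the lowest of the 6 libraries (log2 fold change 2.32 ± 0.68, edgeR adjusted p = 0.0089). PSAT1, an enzyme of serine synthesis, stood at 78.2, 96.99 and 113 CPM in iEF and 609, 545 and 152 CPM in iLuc (log2 fold change 2.18 ± 0.37, edgeR adjusted p = 6.83e-05). PHGDH, the first enzyme of that pathway, stood at 65.2, 74.1 and 93.3 CPM in iEF and 269, 313 and 113 CPM in iLuc, and in these 2 genes all iLuc libraries lay above all iEF libraries (log2 fold change 1.59 ± 0.27, edgeR adjusted p = 6.96e-05). Of the 15, 2 were called higher in WT-EF over del22. The promoter of ASNS holds a match to the amino acid response element, shown in capitals in the 150 bases before its start (RefSeq, GRCh38.p14). The motif searched was TGATGNAA on both strands, found in 4 of 20 promoters of the list (20%) and in 2.30% of 15069 promoters of genes tested, each counted over 300 bases. The list was chosen in part as ATF4-linked, so this share is not independent of the choice.
ASNS, chr7:97872409-97872558, minus strand: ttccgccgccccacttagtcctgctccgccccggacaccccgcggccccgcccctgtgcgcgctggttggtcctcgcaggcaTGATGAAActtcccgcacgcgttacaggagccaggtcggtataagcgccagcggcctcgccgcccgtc

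Cholesterol synthesis genes gave 12 activated and 2 repressed of 24, with medians of 1.15, 0.67 and 0.12 in the 3 numbered pairs. INSIG1, which holds back the sterol sensor, was repressed, at 85.8, 213 and 182 CPM in iEF and 62.3, 82.04 and 36.7 CPM in iLuc, with no overlap (log2 fold change -1.42 ± 0.25, edgeR adjusted p = 0.000109). Of the 12 activated genes 2 were called the same way in WT-EF over del22.

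**Figure D3:**
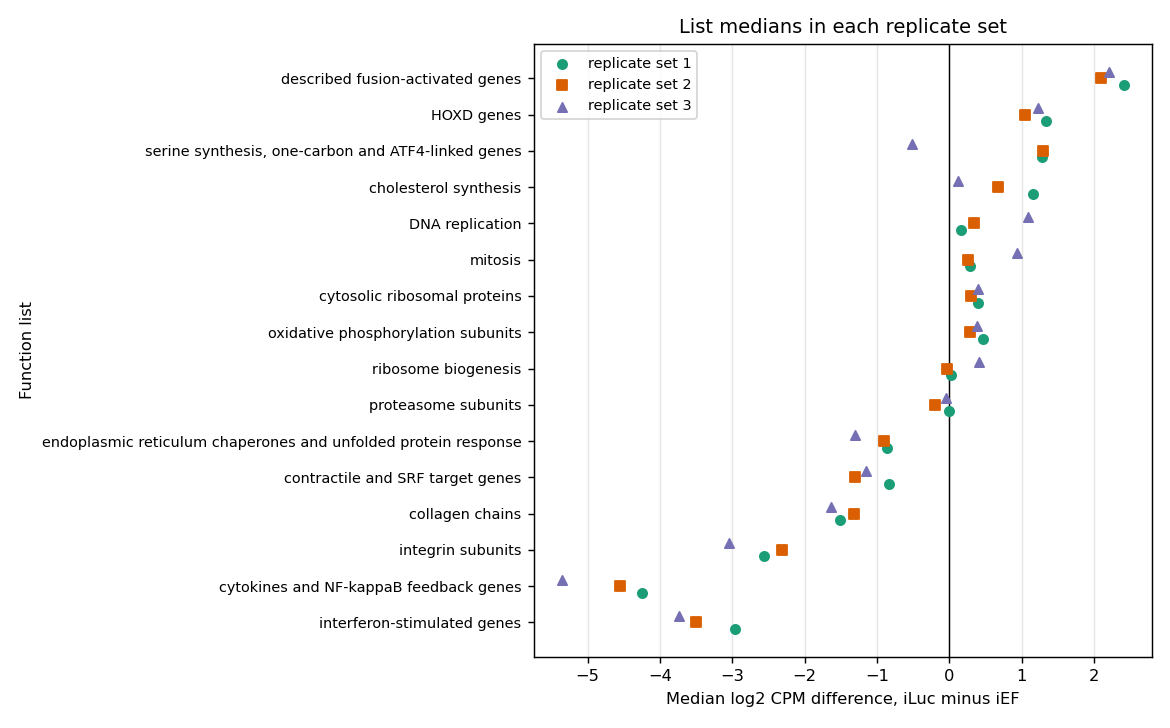
Median over the members of 16 function lists of the difference in log2 CPM between the iLuc and iEF libraries of the same replicate number. Immune, matrix and contractile lists lie below 0 in all 3 sets, and the ATF4-linked list lies at 1.29, 1.29 and -0.51.

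The extracellular matrix and its enzymes were repressed as a group. Of 44 collagen chains 28 were repressed and 2 activated, with a median log2 fold change of -1.62, or -1.41 with genes at the floor placed at their bound. Of 12 laminin chains 10 were repressed, of 55 other matrix glycoproteins and proteoglycans 37 were repressed and 9 activated, and of 41 metalloprotease, ADAMTS and TIMP genes 34 were repressed and 0 activated. All 5 lysyl oxidases were repressed. The same direction was called in WT-EF over del22 for 19 of the 28 collagens, 8 of the 10 laminins, 30 of the 37 glycoproteins, 25 of the 34 proteases and inhibitors and 5 of the 5 lysyl oxidases. Without iLuc replicate 3, 4 collagens and 2 protease genes were activated, and without iEF replicate 1, or with library totals alone, 4 collagens were.

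COL6A3, a chain of microfibrillar type VI collagen, stood at 482, 1126 and 265 CPM in iEF and 3.88, 2.61 and 2.31 CPM in iLuc (log2 fold change -7.65 ± 0.47, edgeR adjusted p = 4.82e-11), and its partner COL6A2 at 784, 1242 and 977 CPM in iEF and 12.5, 18.9 and 11.3 CPM in iLuc (log2 fold change -6.15 ± 0.31, edgeR adjusted p = 3.14e-12). COL1A1, a chain of fibrillar type I collagen, stood at 269.8, 318 and 215 CPM in iEF and 9.84, 6.85 and 14.4 CPM in iLuc, without overlap (log2 fold change -4.67 ± 0.33, edgeR adjusted p = 3.34e-10). The 2 activated collagens were COL21A1, a fibril-associated type, at 6.37, 12.2 and 8.62 CPM in iEF and 131, 219.9 and 64.2 CPM in iLuc (log2 fold change 3.88 ± 0.31, edgeR adjusted p = 2.52e-09), and COL25A1, a transmembrane type of neurons, at 2.87, 2.25 and 3.24 CPM in iEF and 13.9, 31.1 and 21.2 CPM in iLuc (log2 fold change 2.97 ± 0.32, edgeR adjusted p = 1.40e-07). FN1, fibronectin, stood at 19529.6, 28872 and 16003 CPM in iEF and 2643, 4054 and 2085 CPM in iLuc (log2 fold change -2.88 ± 0.17, edgeR adjusted p = 3.52e-11). THBS1, thrombospondin 1, stood at 79.3, 95.01 and 88.6 CPM in iEF and 1.18, 1.04 and 0.877 CPM in iLuc, with the 3 iLuc libraries close together and far below iEF (log2 fold change -6.40 ± 0.18, edgeR adjusted p = 2.89e-15). LAMA4, a laminin chain of vessels and muscle, stood at 128, 323 and 137 CPM in iEF and 1.80, 1.41 and 1.33 CPM in iLuc (log2 fold change -6.95 ± 0.34, edgeR adjusted p = 1.82e-12). MMP1, an interstitial collagenase, varied in iEF, at 3212, 769.7 and 3949 CPM in iEF and 701, 320.3 and 413 CPM in iLuc (log2 fold change -2.37 ± 0.36, edgeR adjusted p = 1.42e-05), and MMP9, a gelatinase, was not called although its groups did not overlap (log2 fold change -1.24 ± 0.52, edgeR adjusted p = 0.0641). LOXL2, a lysyl oxidase like LOX, stood at 131, 225 and 138 CPM in iEF and 2.11, 1.97 and 1.88 CPM in iLuc (log2 fold change -6.35 ± 0.23, edgeR adjusted p = 4.49e-14).

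Integrins, focal adhesions and the contractile apparatus followed. Integrin subunits gave 19 repressed and 3 activated of 26, with a median of -2.85. Focal adhesion and caveola proteins gave 17 and 3 of 22, contractile and SRF target genes 21 and 1 of 32 (20 and 3 without iEF replicate 2), and YAP and TEAD target genes 17 and 0 of 22. ITGA3, a laminin receptor subunit, stood at 326, 384 and 321 CPM in iEF and 3.70, 3.89 and 3.08 CPM in iLuc (log2 fold change -6.59 ± 0.23, edgeR adjusted p = 2.60e-14). ITGA11, a collagen receptor subunit, stood at 29.2, 30.3 and 27.7 CPM in iEF and 0.283, 0.265 and 0.175 CPM in iLuc (log2 fold change -6.90 ± 0.28, edgeR adjusted p = 2.08e-13), and ITGB1, the common partner of many alpha chains, at 1292, 1320.3 and 1278 CPM in iEF and 454, 594 and 447 CPM in iLuc (log2 fold change -1.39 ± 0.12, edgeR adjusted p = 6.00e-09). ITGB2, the beta chain of leukocyte integrins, was activated, at 3.15, 4.47 and 2.54 CPM in iEF and 12.1, 16.4 and 8.89 CPM in iLuc (log2 fold change 1.88 ± 0.21, edgeR adjusted p = 3.02e-07). ITGA7, a laminin receptor of muscle (log2 fold change 1.55 ± 0.23, edgeR adjusted p = 1.45e-05), and ITGA2B, the platelet chain, were the other activated subunits. TPM1, a tropomyosin, stood at 473, 513 and 413 CPM in iEF and 22.2, 19.8 and 22.7 CPM in iLuc, although its exons overlap antisense transcripts over 3336 of 14700 bases (log2 fold change -4.45 ± 0.26, edgeR adjusted p = 2.88e-11). ACTA2, smooth muscle actin, overlapped between the groups and was not called (log2 fold change 0.46 ± 0.32, edgeR adjusted p = 0.276). ANKRD1, a nuclear protein induced by YAP, stood at 112, 285 and 189 CPM in iEF and 5.11, 4.31 and 2.46 CPM in iLuc (log2 fold change -5.55 ± 0.39, edgeR adjusted p = 3.83e-10).

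Caveola genes split by kind. CAV1, the main caveolin, stood at 626, 570.0 and 559.8 CPM in iEF and 2016, 2209 and 1903 CPM in iLuc (log2 fold change 1.80 ± 0.13, edgeR adjusted p = 6.94e-10), and CAV2 at 137, 185 and 131 CPM in iEF and 761, 806 and 427 CPM in iLuc (log2 fold change 2.12 ± 0.20, edgeR adjusted p = 1.80e-08), both activated with no overlap. CAVIN1, the coat protein that caveolae also need, stood at 291, 341 and 282 CPM in iEF and 51.6, 34.01 and 38.3 CPM in iLuc and was repressed (log2 fold change -2.90 ± 0.16, edgeR adjusted p = 1.36e-11). The same split stood in WT-EF over del22, with log2 fold changes of 0.71, 0.75 and -1.60 for CAV1, CAV2 and CAVIN1, each called.

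Markers of mesenchymal stromal cells moved with the matrix genes. The markers include COL1A1 and COL1A2, which are also collagen chains, so this match is not independent evidence. Of 11 such markers 8 were repressed and 0 activated, and their summed level ran from 5855 to 8148 CPM in iEF and from 409 to 666 CPM in iLuc. NT5E, the stromal marker CD73, stood at 2566, 3366 and 2658 CPM in iEF and 46.8, 55.4 and 81.7 CPM in iLuc (log2 fold change -5.57 ± 0.21, edgeR adjusted p = 6.90e-14), CD44, a hyaluronan receptor, at 1495, 1083 and 1668 CPM in iEF and 10.7, 5.28 and 15.5 CPM in iLuc (log2 fold change -7.12 ± 0.31, edgeR adjusted p = 4.27e-13), and PDGFRA, a receptor of mesenchymal growth factors, at 56.1, 99.2 and 72.7 CPM in iEF and 0.231, 0.575 and 0.426 CPM in iLuc (log2 fold change -7.50 ± 0.42, edgeR adjusted p = 1.19e-11). THY1, a defining marker, was not called (log2 fold change -0.01 ± 0.25, edgeR adjusted p = 0.982). Of 10 endothelial markers tested 7 were repressed, with a summed level of 43.9 to 84.0 CPM in iEF and 10.1 to 16.1 CPM in iLuc, while CDH5, their defining cadherin, had at most 10 reads in any library. The part of these markers in the matrix result was not tested. Of 8 leukocyte markers tested 2 were activated and 2 repressed (0 and 2 without iLuc replicate 1), with sums of 14.7 to 30.9 CPM in iEF and 31.7 to 39.6 CPM in iLuc, and PTPRC, the pan-leukocyte gene, was at 0.426 to 0.784 CPM. Of 8 epithelial markers tested 1 was activated and 3 repressed, with sums of 7.63 to 19.96 CPM in iEF and 1.53 to 4.77 CPM in iLuc, and the defining cadherin CDH1 had at most 3 reads in any library. Of 4 hepatocyte and erythroid markers tested 1 was activated and 1 repressed. Of the markers of Ewing sarcoma 7 of 8 were activated. The 7 include FLI1, the targeted gene, and NKX2-2, STEAP1, NR0B1 and LIPI of the described activated list, so this count is not independent evidence. CD99, the remaining marker and a gene annotated on both sex chromosomes, had at most 4 reads in any library.

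Most signalling lists leaned to repression. TGF-beta and BMP ligands, receptors and SMADs gave 27 repressed and 7 activated of 46. INHBA, which forms activin A, stood at 172, 334 and 318 CPM in iEF and 1.18, 1.26 and 2.96 CPM in iLuc (log2 fold change -7.25 ± 0.35, edgeR adjusted p = 1.42e-12). GREM1 and FST, secreted antagonists of BMP and activin, were also repressed, with log2 fold changes of -6.35 and -8.13. GDF6, a BMP-type ligand, went the other way, at 22.2, 25.8 and 25.6 CPM in iEF and 179, 217 and 133 CPM in iLuc (log2 fold change 2.82 ± 0.19, edgeR adjusted p = 2.51e-10), as did the signal transducer SMAD9 (log2 fold change 1.98 ± 0.19, edgeR adjusted p = 3.27e-08).

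In the IGF axis 9 of 16 genes were repressed and 4 activated, with 5 repressed by limma on ComBat-adjusted values. The median log2 fold change was -1.69, but 0.0085 with limma on ComBat-adjusted values. Among the binding protein genes IGFBP1, IGFBP3, IGFBP4, IGFBP5, IGFBP6 and IGFBP7 were repressed, and no value is given here for IGFBP2. IGFBP7 stood at 42.03, 63.9 and 42.8 CPM in iEF and 0.385, 0.354 and 0.1 CPM in iLuc (log2 fold change -7.45 ± 0.35, edgeR adjusted p = 1.05e-12) and IGFBP6 at 32.2, 47.6 and 37.7 CPM in iEF and 1.72, 1.59 and 1.05 CPM in iLuc (log2 fold change -4.74 ± 0.21, edgeR adjusted p = 7.45e-13). The growth factor gene IGF1 was activated, at 2.89, 6.63 and 3.94 CPM in iEF and 40.1, 32.2 and 25.5 CPM in iLuc, but its exons overlap antisense transcripts over 6693 of 8115 bases, so this value is uncertain (log2 fold change 2.92 ± 0.25, edgeR adjusted p = 5.00e-09). IRS2, an adaptor of the insulin and IGF receptors, stood at 36.1, 30.4 and 68.9 CPM in iEF and 130.4, 177 and 123 CPM in iLuc (log2 fold change 1.70 ± 0.21, edgeR adjusted p = 1.41e-06), and the receptor gene IGF1R was not called (log2 fold change -0.31 ± 0.12, edgeR adjusted p = 0.0505).

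Hedgehog genes were split 4 to 4 of 13 tested, with 2 repressed without iEF replicate 1 or with library totals alone. The shares of 30.8% each way stand beside 24.7% activated and 30.0% repressed among protein-coding genes. Besides GLI1, PTCH1, a receptor that is itself a pathway target, stood at 7.05, 7.20 and 5.43 CPM in iEF and 29.1, 30.8 and 24.6 CPM in iLuc (log2 fold change 2.10 ± 0.16, edgeR adjusted p = 1.04e-09). SMO, the signal transducer, was activated (log2 fold change 0.85 ± 0.13, edgeR adjusted p = 2.20e-05), and the factors GLI2 and GLI3 were lower by smaller amounts (log2 fold change -0.73 ± 0.18, edgeR adjusted p = 0.00282 for GLI2 and log2 fold change -0.52 ± 0.15, edgeR adjusted p = 0.00845 for GLI3). Wnt ligands, receptors and modulators gave 22 repressed and 8 activated of 48 tested (56 listed). Secreted Wnt antagonists of the DKK family went both ways. DKK2 stood at 4.53, 5.29 and 9.67 CPM in iEF and 182, 292 and 129 CPM in iLuc (log2 fold change 4.90 ± 0.34, edgeR adjusted p = 2.69e-10), while DKK1 stood at 34.98, 25.2 and 55.3 CPM in iEF and 3.13, 1.61 and 3.03 CPM in iLuc (log2 fold change -3.89 ± 0.31, edgeR adjusted p = 2.06e-09) and DKK3 at 156, 326 and 167 CPM in iEF and 1.49, 1.90 and 1.05 CPM in iLuc (log2 fold change -7.16 ± 0.26, edgeR adjusted p = 5.04e-14). DKK3 shares 5681 of 11958 exon bases with antisense transcripts. The ligand gene WNT7B stood at 7.73, 4.57 and 6.16 CPM in iEF and 0, 0 and 0 CPM in iLuc, at least 84.4-fold lower in iLuc when each iLuc library is placed at the floor of 3 counts. AXIN2 and LEF1, common readouts of beta-catenin activity, were not called (log2 fold change -0.67 ± 0.30, edgeR adjusted p = 0.0788 for AXIN2 and log2 fold change -0.14 ± 0.31, edgeR adjusted p = 0.772 for LEF1).

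Notch genes gave 9 repressed and 5 activated of 21, with 3 activated without iEF replicate 2, without iLuc replicate 3 or without the replicate block. JAG1 and JAG2, ligands of the pathway, moved apart. JAG1 stood at 517, 366 and 569 CPM in iEF and 139.9, 118 and 80.8 CPM in iLuc (log2 fold change -2.10 ± 0.26, edgeR adjusted p = 1.31e-06), and JAG2 at 0.98, 2.00 and 0.892 CPM in iEF and 5.80, 9.68 and 10.999 CPM in iLuc (log2 fold change 2.79 ± 0.31, edgeR adjusted p = 3.29e-07). FGF ligands, receptors and MAPK feedback genes gave 17 repressed and 5 activated of 36 tested (43 listed). SPRY2, an inhibitor induced by receptor tyrosine kinase signals, stood at 121, 91.7 and 188 CPM in iEF and 10.9, 11.2 and 6.56 CPM in iLuc (log2 fold change -3.77 ± 0.26, edgeR adjusted p = 2.22e-10), DUSP4, a MAPK phosphatase, at 84.3, 67.05 and 77.1 CPM in iEF and 14.6, 16.1 and 10.2 CPM in iLuc (log2 fold change -2.48 ± 0.17, edgeR adjusted p = 2.99e-10), and the receptor gene FGFR1 at 254, 237 and 269 CPM in iEF and 77.5, 98.6 and 91.2 CPM in iLuc (log2 fold change -1.51 ± 0.09, edgeR adjusted p = 5.48e-11). SPRY2, DUSP4 and FGFR1 had no overlap between the groups. The glucocorticoid receptor list gave 10 repressed and 2 activated of 15. NR3C1, the receptor itself, stood at 131, 147 and 201 CPM in iEF and 53.2, 43.4 and 32.3 CPM in iLuc (log2 fold change -1.91 ± 0.16, edgeR adjusted p = 5.79e-09), and FKBP5, the target most used to read its activity, was not called (log2 fold change -0.02 ± 0.15, edgeR adjusted p = 0.931).

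Immune and inflammatory lists held mostly repressed genes. All 44 interferon-stimulated genes tested were repressed, with a median log2 fold change of -3.24, and in each of them every iLuc library lay below every iEF library. Of 21 genes of MHC class I presentation 20 were repressed, with a median of -1.95. Of 28 cytokines and NF-kappaB feedback genes 25 were repressed and 0 activated, with a median of -5.12, and of 20 chemokines tested (34 listed) 14 and 0, with a median of -4.76, or -3.59 with genes at the floor placed at their bound. Complement and coagulation regulators gave 17 repressed and 2 activated of 25, and TNF superfamily ligands and receptors 26 and 4 of 35 (25 and 2 without iEF replicate 1). The complement genes C6 and C7, which stood outside these lists, were called higher in iLuc. With limma on ComBat-adjusted values, repressed calls numbered 34 for interferon-stimulated genes, 13 for cytokines, 6 for chemokines and 17 for the TNF superfamily. The second comparison, WT-EF over del22, gave the same direction for 41 of the 44 interferon-stimulated genes, 18 of the 20 MHC class I genes, 21 of the 25 cytokines, 13 of the 14 chemokines, 15 of the 17 complement and coagulation genes and 19 of the 26 TNF superfamily genes.

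IFIT1, a protein that binds viral RNA, stood at 183, 221 and 198 CPM in iEF and 8.30, 7.14 and 4.11 CPM in iLuc (log2 fold change -4.93 ± 0.38, edgeR adjusted p = 1.33e-09). MX1, a GTPase that blocks viral replication, stood at 165, 381 and 139 CPM in iEF and 3.18, 3.82 and 1.25 CPM in iLuc (log2 fold change -6.34 ± 0.59, edgeR adjusted p = 2.09e-08), and IFI27, a small mitochondrial protein induced by interferon, at 76.9, 213 and 76.2 CPM in iEF and 0.539, 1.13 and 0.852 CPM in iLuc (log2 fold change -7.13 ± 0.72, edgeR adjusted p = 7.21e-08). In these genes every iLuc library was below every iEF library. The antigen-presenting chain HLA-B stood at 607, 1143 and 765 CPM in iEF and 20.4, 28.9 and 15.3 CPM in iLuc (log2 fold change -5.30 ± 0.40, edgeR adjusted p = 8.78e-10) and HLA-C at 632, 964 and 670.3 CPM in iEF and 108, 100.1 and 67.1 CPM in iLuc (log2 fold change -3.06 ± 0.22, edgeR adjusted p = 4.22e-10). These genes are near-identical in long stretches, so their reads may be split between them. B2M, the shared light chain, stood at 1732, 2800.0 and 1943 CPM in iEF and 1020.3, 979 and 788 CPM in iLuc (log2 fold change -1.21 ± 0.16, edgeR adjusted p = 2.11e-06), and TAP1, a subunit of the peptide transporter, at 102, 151 and 97.1 CPM in iEF and 13.3, 11.98 and 11.3 CPM in iLuc (log2 fold change -3.25 ± 0.25, edgeR adjusted p = 1.11e-09).

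A known response sequence was counted in promoters of the interferon and MHC class I lists. The interferon list was chosen by known response to interferon, and the MHC class I list also holds genes known to be induced by it. Neither share is independent of that choice. The interferon-stimulated response element was searched as GAAANNGAAA on both strands in the 250 bases before and 50 bases after each gene's start (RefSeq, GRCh38.p14). It was found in 22 of 34 promoters of interferon-stimulated genes (64.7%) and in 9 of 17 of MHC class I presentation (52.9%), against 3.01% of 15069 promoters of genes tested. Among all activated genes the share was 2.29%, among all repressed genes 3.95%. A match is a description of the sequence, and no binding was measured here. The 150 bases before the start are shown for 5 members, with matches in capitals. These members were picked for display, and each of them holds a match. Matches begin 116 and 103 bases before the start in IFIT1, 108 and 95 in IFI27, 134 and 128 in TAP1, 144 and 138 in B2M and 21 in PSMB10. Those of TAP1 and of B2M overlap and read as 1 run of capitals.
IFIT1, chr10:89392473-89392622, plus strand: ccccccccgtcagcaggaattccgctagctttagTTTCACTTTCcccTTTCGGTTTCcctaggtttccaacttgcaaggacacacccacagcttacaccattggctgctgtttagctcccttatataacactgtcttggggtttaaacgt
IFI27, chr14:94110586-94110735, plus strand: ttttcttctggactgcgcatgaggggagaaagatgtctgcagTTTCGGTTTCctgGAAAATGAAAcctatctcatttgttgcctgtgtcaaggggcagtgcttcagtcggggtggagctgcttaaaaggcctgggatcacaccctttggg
TAP1, chr6:32853705-32853854, minus strand: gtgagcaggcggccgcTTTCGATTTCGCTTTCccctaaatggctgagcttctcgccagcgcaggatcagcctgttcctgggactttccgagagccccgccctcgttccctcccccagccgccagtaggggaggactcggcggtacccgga
B2M, chr15:44711367-44711516, plus strand: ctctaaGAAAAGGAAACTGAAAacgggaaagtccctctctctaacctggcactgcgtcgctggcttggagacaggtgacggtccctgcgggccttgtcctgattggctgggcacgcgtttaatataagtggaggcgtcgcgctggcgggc
PSMB10, chr16:67936851-67937000, minus strand: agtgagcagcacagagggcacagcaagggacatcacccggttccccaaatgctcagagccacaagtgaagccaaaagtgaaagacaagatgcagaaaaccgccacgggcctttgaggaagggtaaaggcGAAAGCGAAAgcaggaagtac

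GGAA motifs were counted in the same windows. Adjacent GGAA repeats (GGAAGGAA) were present in 3.13% of the promoters of activated genes, 3.74% of repressed genes and 3.47% of all genes tested. The ETS motif CCGGAAGT stood in 6.97%, 4.81% and 6.76% in that order. Among genes called the same way in WT-EF over del22 it stood in 6.56% of activated and 3.74% of repressed genes. The windows cover 300 bases, and repeats farther from a start were not searched.

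Among inflammatory genes CXCL8, a neutrophil chemokine, stood at 2328, 4228 and 3964 CPM in iEF and 32.4, 30.7 and 16.6 CPM in iLuc (log2 fold change -7.07 ± 0.48, edgeR adjusted p = 2.03e-10), and CCL2, a monocyte chemokine, at 284, 741 and 245 CPM in iEF and 1.98, 2.17 and 2.51 CPM in iLuc (log2 fold change -7.45 ± 0.61, edgeR adjusted p = 3.14e-09). The groups were far apart in both. IL1B, an inflammatory cytokine, stood at 158, 142 and 169 CPM in iEF and 2.03, 1.59 and 2.56 CPM in iLuc (log2 fold change -6.27 ± 0.60, edgeR adjusted p = 2.95e-08), IL6 at 13.6, 23.4 and 26.6 CPM in iEF and 0.0771, 0.133 and 0.0752 CPM in iLuc (log2 fold change -7.77 ± 0.62, edgeR adjusted p = 2.32e-09), and LIF, a cytokine of the same receptor family as IL6, at 279, 318 and 417 CPM in iEF and 0.462, 0.796 and 0.676 CPM in iLuc (log2 fold change -9.03 ± 0.59, edgeR adjusted p = 1.02e-10). BIRC3, an inhibitor of apoptosis induced by NF-kappaB, stood at 530.2, 1392 and 1887 CPM in iEF and 6.32, 6.23 and 5.14 CPM in iLuc (log2 fold change -7.71 ± 0.74, edgeR adjusted p = 3.09e-08), and NFKBIA, the inhibitor that ends NF-kappaB signals, at 158, 320.4 and 238 CPM in iEF and 43.9, 40.7 and 52.1 CPM in iLuc (log2 fold change -2.35 ± 0.30, edgeR adjusted p = 1.74e-06). C3, the central complement protein, stood at 52.2, 46.02 and 42.6 CPM in iEF and 1.28, 1.08 and 0.626 CPM in iLuc (log2 fold change -5.57 ± 0.71, edgeR adjusted p = 1.61e-06), and C5, a later one, was activated, at 6.37, 11.7 and 5.13 CPM in iEF and 35.1, 37.3 and 15.4 CPM in iLuc (log2 fold change 1.94 ± 0.27, edgeR adjusted p = 5.62e-06). TNFSF15, a TNF-type ligand, stood at 145, 161 and 335 CPM in iEF and 0.437, 0.685 and 0.676 CPM in iLuc (log2 fold change -8.45 ± 0.44, edgeR adjusted p = 4.16e-12), and the death receptor gene FAS, which shares 917 of 3562 exon bases with antisense transcripts, was activated (log2 fold change 0.83 ± 0.18, edgeR adjusted p = 0.000982).

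**Figure D4:**
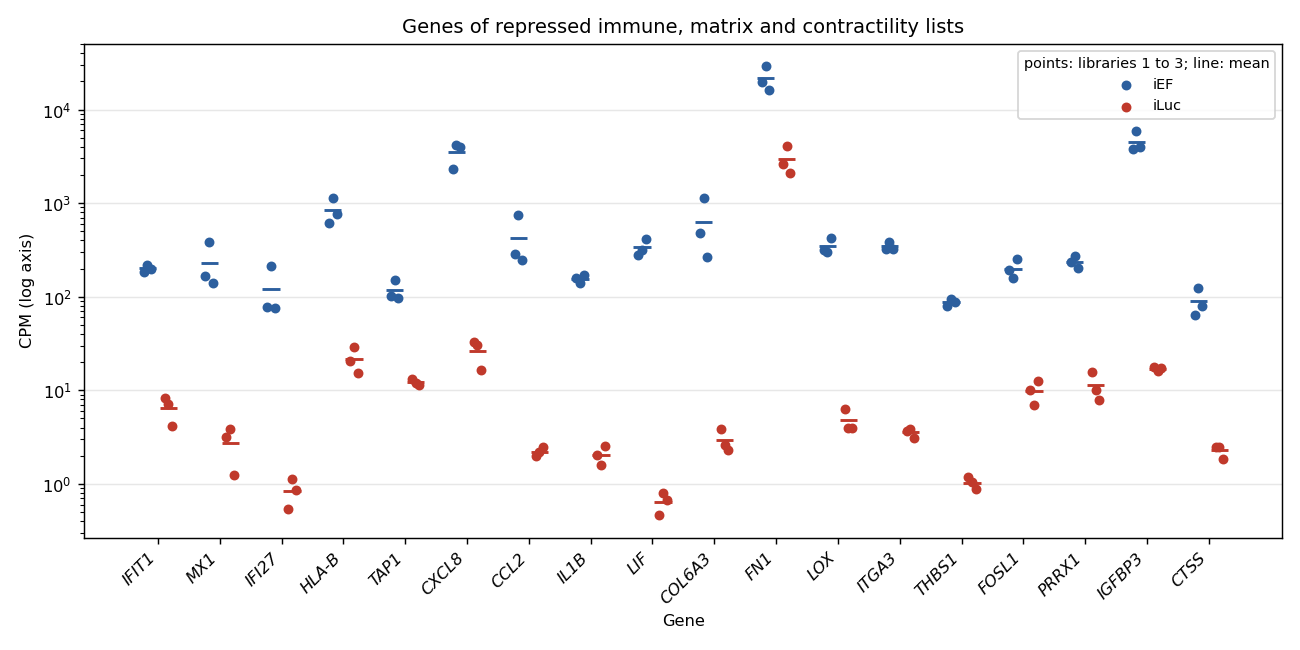
Level in CPM on a log axis of 18 repressed genes in the 3 iEF and 3 iLuc libraries. Points are libraries and lines are means of 3. The genes were picked for display after their values were seen. In each of them every iLuc library lies below every iEF library.

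Endoplasmic reticulum chaperones and unfolded protein response genes gave 15 repressed and 1 activated of 20, and lysosomal proteins 30 and 4 of 39 (28 and 2 without iEF replicate 1, iLuc replicate 1 or the replicate block, 28 and 1 without iEF replicate 3). HSPA5, the chaperone BiP, stood at 459, 344 and 756 CPM in iEF and 145, 203 and 207 CPM in iLuc (log2 fold change -1.51 ± 0.26, edgeR adjusted p = 6.51e-05), and XBP1, a factor of that response, at 161, 185 and 282 CPM in iEF and 81.96, 94.5 and 43.6 CPM in iLuc (log2 fold change -1.52 ± 0.21, edgeR adjusted p = 6.87e-06). Only 3 of the 15 were called lower in WT-EF over del22, and the log2 fold change of HSPA5 was -0.07. CTSB, a lysosomal protease, stood at 429, 514 and 426 CPM in iEF and 117, 126 and 114 CPM in iLuc (log2 fold change -1.94 ± 0.10, edgeR adjusted p = 3.41e-12), and CTSS, the protease that prepares MHC class II for peptides, at 63.6, 124 and 80.03 CPM in iEF and 2.49, 2.50 and 1.83 CPM in iLuc (log2 fold change -5.26 ± 0.49, edgeR adjusted p = 2.00e-08). Of the lysosomal calls 21 of 30 recurred in WT-EF over del22. The p53-regulated genes gave 10 repressed and 4 activated of 22. MDM2, the ligase for p53, was activated (log2 fold change 0.52 ± 0.10, edgeR adjusted p = 0.000136) while CDKN1A was repressed. Metallothioneins were split 3 to 2 of 8 (1 to 2 without iLuc replicate 3), with MT2A at 366, 265 and 172 CPM in iEF and 31.1, 41.2 and 55.6 CPM in iLuc (log2 fold change -2.70 ± 0.32, edgeR adjusted p = 7.20e-07).

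Adhesion and transport families held members of both directions. Cadherins and protocadherins gave 16 activated and 16 repressed of 81, or 19.8% each way. All genes tested gave 18.7% activated and 22.4% repressed, and protein-coding genes 24.7% and 30.0%. CDH12 and CDH8, cadherins of neurons, were activated, CDH12 at 3.06, 6.35 and 4.40 CPM in iEF and 152, 128 and 95.1 CPM in iLuc (log2 fold change 4.80 ± 0.26, edgeR adjusted p = 8.80e-12) and CDH8 at 4.92, 6.51 and 4.03 CPM in iEF and 63.8, 51.1 and 45.7 CPM in iLuc (log2 fold change 3.38 ± 0.19, edgeR adjusted p = 1.55e-11). CDH2, N-cadherin, stood at 308, 219.9 and 287 CPM in iEF and 38.1, 28.95 and 27.9 CPM in iLuc and was repressed (log2 fold change -3.10 ± 0.16, edgeR adjusted p = 5.26e-12), as was CDH13, a cadherin without a cytoplasmic domain whose exons overlap antisense transcripts over 2354 of 11025 bases (log2 fold change -7.73 ± 0.28, edgeR adjusted p = 4.99e-14). Keratins, claudins and connexins gave 28 repressed and 8 activated of 58 tested (99 listed), with 5 activated without iEF replicate 1, iEF replicate 3 or iLuc replicate 1, and 17 and 4 by limma on ComBat-adjusted values. Solute carriers gave 92 repressed and 70 activated of 301 tested (335 listed). These shares, 30.6% and 23.3%, were near the 30.0% and 24.7% of protein-coding genes. SLC15A2, a peptide transporter, stood at 0.63, 0.939 and 1.08 CPM in iEF and 16.2, 13.4 and 18.8 CPM in iLuc (log2 fold change 4.21 ± 0.34, edgeR adjusted p = 3.05e-09), and SLC14A1, a urea transporter, at 38.2, 136 and 46.7 CPM in iEF and 0.462, 0.199 and 0.351 CPM in iLuc (log2 fold change -7.66 ± 0.43, edgeR adjusted p = 1.47e-11).

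In the second comparison most list medians had the same sign and were nearer to 0. Of 5727 genes activated in iLuc over iEF, 2535 (44.3%) were called higher in WT-EF over del22, which is 77.7% of the 3261 genes called higher there. Of 6833 genes repressed, 3673 (53.8%) were called lower, 82.7% of the 4442 called lower there, and 86 genes were called in opposite directions. Among 62 lists with at least 5 members tested, the medians of both comparisons were below 0 in 37, above 0 in 20 and of unlike sign in 5. In 52 of the 62 the median was nearer to 0 in WT-EF over del22. The HOXD and postsynaptic lists were among those with a larger median there, at 1.25 and 0.69. The difference in size between the 2 comparisons was not tested.

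**Figure D5:**
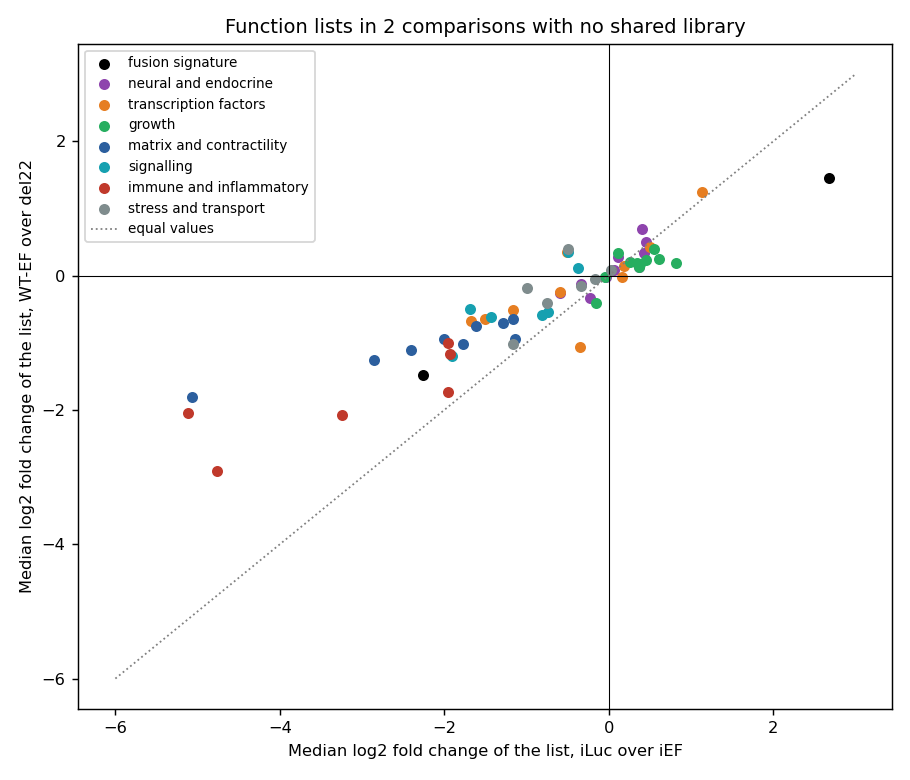
Median log2 fold change of 62 function lists in iLuc over iEF (horizontal axis) and in WT-EF over del22 (vertical axis). Each point is a list, coloured by theme, and the dotted line marks equal values. Immune and matrix lists lie below 0 on both axes and nearer to 0 on the vertical one.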

How the data were processed

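A673 RNA was sequenced in 21 libraries of 7 groups with 3 replicates each, and groups were taken from the labels. The authors aligned reads with STAR (2.5.1b per the labels, while the study's methods name another release) to hg19 and counted them per gene with htseq-count (intersection-strict). Its annotation release and strand setting are not given in the sources used here. The deposited values used here are raw counts per gene, and, for 1 alternative, a signal the authors made from them by adjusting counts with ComBat. The authors also deposited a table of log2 fold changes and adjusted p values, which was not used.

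Genes with a mean count of at least 1 over the 21 libraries were tested (30549 of 57820 in the table) with edgeR 4.0.16 (R 4.3.3), using TMM factors, all 7 groups and the replicate number as a block, because the study ran the replicates as separate rounds and adjusted the replicate sets with ComBat. Deviations of same-numbered iLuc and iEF libraries from their group means correlated with r = -0.041, 0.226 and 0.130 over 14433 genes, and iLuc replicates 1 and 3 correlated best with iEF libraries of another number. Low counts and 21 libraries sharing 1 estimate of spread set the precision, and totals of 33.3 to 44.8 M counts in the 6 main libraries the depth. The 63 function lists and 6 marker lists were written from textbook knowledge, with earlier results of these data known, as were the comparisons. Genes named are key genes of each list, up to 5 called members with the largest change in the main direction and 3 in the other at a mean of at least 1 CPM, and 15 protein-coding genes each way at a mean of at least 5 CPM with the same direction in all 3 replicate sets. A fold against iLuc libraries at 0 was set at a floor of 3 counts per library, which covers counting error only. Gene places and exon overlaps come from GENCODE 44 lifted to GRCh37, promoters from RefSeq on GRCh38.p14 (15069 of 29039 gene symbols matched). Alternatives were DESeq2 1.42.0, limma 3.58.1 on ComBat-adjusted log2 CPM with a pseudocount of 1, other scalings, filters, thresholds and sample sets. Library totals without factors, and leaving out WT-EF or del22 libraries, were added after the data had been seen. The fit was tested on simulated data. Some members of the lists are not reported here by name.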

Additional observations from a re-analysis of the deposited data

How the results depend on the processing

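The count of 12560 called genes fell to 8319 with only the 6 iLuc and iEF libraries in the model and no block, and to 7909 with a 2-fold minimum. Activated genes fell from 5727 to 3758 with only these libraries and the block, to 3498 without it, and to 3093 with the 2-fold minimum. Genes higher in both comparisons numbered 2535, against 4215 with library totals alone, 4128 with limma on ComBat-adjusted values, 1153 with the 2-fold minimum and 1559 at an adjusted p below 0.01. Genes lower in both fell from 3673 to 2199 with the 2-fold minimum. Fits with only the iLuc and iEF libraries gave no value for WT-EF over del22. Leaving out 1 library at a time gave 11007 to 12008 called genes, 4821 to 5583 activated, 6186 to 6487 repressed, 1972 to 2570 higher in both and 2830 to 3673 lower in both, with 16 to 20 lists having more activated than repressed members and 39 to 43 the opposite. Some list medians changed sign. With limma on ComBat-adjusted values the IGF median went from -1.69 to 0.0085 and that of solute carriers to 0.016. With library totals the glycolysis median turned to 0.0067 and that of solute carriers to 0.00019. The Hedgehog median went from -0.38 to 0.029 without iEF replicate 3, within a range of -0.40 to 0.029 over single libraries left out. The SOX median went from -0.51 to 0.019 under edgeR's expression filter. The median of the 4 hepatocyte and erythroid markers was -6.83 under that filter, -1.61 without iLuc replicate 2 (the lowest of a range that reached 2.20 without iEF replicate 1) and -0.0072 with limma on ComBat-adjusted values. NOP56 turned to a log2 fold change of -0.39 without iLuc replicate 3 (edgeR adjusted p = 0.010) and ranged up to 0.33 without other libraries. With limma on ComBat-adjusted values 41 of 69 list medians moved by more than their standard deviation over the 3 numbered pairs, and 25 stayed within it. A further 3, each farther from 0 than that deviation, changed sign. The cause of these changes was not tested.

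The fit without the replicate block called 12121 genes, 5482 higher and 6639 lower in iLuc, with 2258 and 3404 called the same way in WT-EF over del22. Without the block the activated count fell from 5 to 3 in the Notch list and from 4 to 2 in the lysosomal list.

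Genes near 1 read per library carry the least precise fold changes. Values of genes with near-identical copies or overlapping exons depend on how reads were assigned.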

Other observations

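Among the 15 protein-coding genes with the largest rise in iLuc were several outside the function lists. C6 and C7, components of the membrane attack complex of complement, headed them. C6 stood at 0, 0 and 0.054 CPM in iEF and between 10.2 and 35.2 CPM in iLuc and was called higher, without a fold since iEF held at most 2 reads in a library. C7 stood at 0.14, 0.0939 and 0.216 CPM in iEF and 14.4, 34.5 and 21.6 CPM in iLuc (log2 fold change 7.17 ± 0.38, edgeR adjusted p = 6.02e-12). In WT-EF over del22 C6 was called higher and C7 was not called. APELA, a peptide ligand of the apelin receptor, stood at 0.373, 0.939 and 0.405 CPM in iEF and 30.98, 28.8 and 20.4 CPM in iLuc (log2 fold change 5.66 ± 0.35, edgeR adjusted p = 6.08e-11), and AK7, an adenylate kinase of motile cilia, at 2.66, 6.63 and 4.11 CPM in iEF and 217, 283 and 204 CPM in iLuc (log2 fold change 5.78 ± 0.28, edgeR adjusted p = 1.49e-12). In these genes no iLuc library overlapped iEF.

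The genes that fell most included several with a known role outside immunity and matrix. VEGFC, a growth factor of lymphatic vessels, stood at 122, 80.3 and 128 CPM in iEF and 0.36, 0.133 and 0.276 CPM in iLuc (log2 fold change -8.74 ± 0.41, edgeR adjusted p = 1.27e-12). PMP22, a myelin protein of Schwann cells, stood at 162, 306 and 138 CPM in iEF and 0.565, 0.685 and 0.601 CPM in iLuc (log2 fold change -8.32 ± 0.31, edgeR adjusted p = 6.90e-14). MLPH, which links melanosomes to myosin, stood at 75.2, 107 and 56.04 CPM in iEF and 0.0771, 0.177 and 0.15 CPM in iLuc (log2 fold change -9.14 ± 0.39, edgeR adjusted p = 3.77e-13), and HTR7, a serotonin receptor, at 15.4, 5.26 and 20.6 CPM in iEF and 0.0257, 0.0442 and 0.0251 CPM in iLuc. HTR7 was called lower, and no fold is given because iLuc held at most 2 reads in a library. All 4 were called lower in WT-EF over del22 too, with log2 fold changes of -3.45, -1.57 and -3.32 in the first 3.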
